A study of Mus musculus with 18 samples.

Results

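Sprouty and Spred proteins and Errfi1 (also called Mig6) are inhibitors that act on receptor tyrosine kinase signalling, and 6 genes of this kind are described here: Spry1, Spry2, Spry4, Spred1, Spred2 and Errfi1. They were taken by name, 6 out of 23212 named genes in the merged annotation of the study, with their levels summed over the assembled transcripts of each library. The RNA came from immortalized mouse embryonic fibroblasts (MEFs) that lack their own rela gene, and every line had received mouse RelA back from a pBABE-puro retrovirus. RelA is an NF-κB subunit that switches on genes after the cytokine TNFα, and the study compared its routes to the coactivators CBP and p300. The RelA(wt) line carried the normal protein, the RelA(TA2) line carried a protein mutated in the TA2 part of its transactivation domain, and the RelA(Ser276Ala) line carried alanine in place of a serine in the Rel homology region. Each line was sampled without TNFα (0 h) and at 1 h and 2 h of TNFα at 5 ng/ml, which gives 9 conditions with 2 libraries each, 18 in all. Whether each line is a clone or a pool is not given in the sources used here, and libraries of cells with no RelA were not analysed here, so a change with TNFα cannot be told to need RelA.

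Growth factor receptors signal through Ras and Raf to the kinases MEK and ERK, and cells restrain this route with inhibitors whose genes are often themselves turned on by it. Sprouty proteins sit at the membrane and damp the step from receptor to Ras and Raf. Spred proteins bind neurofibromin and bring it to Ras. Errfi1 binds the kinase domain of EGF receptor family members and blocks it. In fibroblasts, immediate-early induction of such genes can be a sign of an active ERK pathway, but ERK activity was not measured here.

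Gene levels were read on 2 scales. The first is FPKM, the fragments of a transcript divided by its length and by the mapped fragments of its library, summed over the transcripts that Cufflinks had assembled for a gene in a library. The second is the number of sequenced fragments behind those transcripts, recovered from the width of the confidence interval that Cufflinks wrote beside each FPKM and divided by the library's total in genes, as fragments per 1000000 (FPM). Where a locus held several transcripts, it was estimated from FPKM and length instead. FPKM sums rise when a gene is assembled in short pieces, and the fragment number does not. A fragment number, on the other hand, counts over whatever length was assembled. Differences were tested with limma on log2 values over the 18 libraries, after adding 0.5, and called at a Benjamini-Hochberg adjusted p under 0.05 over 12353 genes. All 6 genes were among those tested. With 2 libraries a condition and 9 residual degrees of freedom, the p-values measure the spread between libraries. In bulk RNA, fewer cells that express a gene and less RNA per cell cannot be told apart.

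Libraries held an estimated 25.3 to 31.3 M mapped fragments. Rela was at 156 to 187 FPKM in the 6 RelA(wt) libraries, 315 to 366 in RelA(TA2) and 174 to 211 in RelA(Ser276Ala) libraries. That shows Rela RNA in every line. The level cannot show how much of the RNA came from the added gene, which mutation that gene carries or how much protein it gives. The fibroblast label was met: 10 of 10 marker genes were above 1 FPKM in every library. Of markers of other cell types, 4 of 8 for macrophages (Ptprc and Itgam among them), 5 of 7 for endothelium (Pecam1, Vwf), 5 of 7 for epithelium (Epcam, Cdh1) and 4 of 6 for muscle (Myod1, Myog) were listed at 0 in every library. Above 1 FPKM in every library were 2 for macrophages and 1 each for endothelium, epithelium and muscle. The highest medians in these lists were 7.09 FPKM for Cd14, 4.94 for Cdh5, 3.42 for Krt8 and 2.70 for Des. Among fibroblast markers the highest was 1908 for Vim.

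The promoter of Errfi1 is shown because Errfi1 was among the genes that rose at 1 h and its window held a cyclic AMP response element, the site of CREB, a factor that CBP was named for binding. Its 250 bases before the RefSeq start, from the RefSeq table of GRCm38.p6 (the patch level of mm10), lie on the plus strand at chr4:150854820-150855069. The capitals mark only that element (TGACGTCA) and a TATA box (TATAAA). The Sp1 letters GGGCGG were also found, on the other strand (ccgccc as printed), and are left in small letters.
Errfi1 promoter: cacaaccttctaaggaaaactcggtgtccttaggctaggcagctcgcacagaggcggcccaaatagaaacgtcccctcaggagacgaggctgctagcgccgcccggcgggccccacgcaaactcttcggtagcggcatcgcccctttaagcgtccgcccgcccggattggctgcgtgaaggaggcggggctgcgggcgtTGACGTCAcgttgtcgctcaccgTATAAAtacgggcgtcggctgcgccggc
The element ends 44 bases and the TATA box ends 23 bases before the start.

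Searching both strands of the 250 bases before each of the 6 starts in the RefSeq table for these genes (2 for Errfi1, none for Spry4) found TGACGTCA in 1 window and TATAAA in 1 window, both the one shown. Among the same 250 bases before all 32851 starts in the table, 1.55% held TGACGTCA and 12.4% held TATAAA. The Sp1 letters GGGCGG were in 4 of the 6 windows, in Spry1, Spred1, Spred2 and Errfi1, against 32.7% of all windows. The NF-κB consensus (7.25% of all windows), the CArG box bound by serum response factor (1.47%), the AP-1 letters TGANTCA (6.75%), the EGR letters GCGGGGGCG (2.57%) and the ETS letters CCGGAAG (6.91%) were in none of the 6. That says only that these letters are not in these windows. The Sp1 and EGR letters share GGGCG and can overlap, while TGANTCA and TGACGTCA cannot both match from the same base.

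Per base of transcript, the Spred genes had the highest medians of the group over the 18 libraries, but not the highest levels at 1 h. FPM per kilobase of annotated exon had a median over the 18 libraries of 22.9 for Spred2, 14.96 for Spred1, 9.14 for Spry2, 8.01 for Errfi1, 5.95 for Spry4 and 2.04 for Spry1. Spred2 was above Spred1 in 18 of 18 libraries with no overlap of their ranges, and Spry4 was above Spry1 in 18 of 18. Spred1 was above Spry2 in 12 of 18 libraries, Spry2 above Errfi1 in 14 and Errfi1 above Spry4 in 16. The order of these neighbours was thus not the same in every library. At 1 h Spry2 stood above Spred1 in every library, and above Spred2 in all but RelA(Ser276Ala) replicate 2 (21.6 against 23.1). In RelA(wt) at 1 h Spry2 was at 36.5 and 37.7, and Spred2 at 22.2 and 22.9. The remaining paralogs, Spry3 and Spred3, were listed at 0 in every library. The number of fragments behind a gene ran from 390 to 2661 for Spry2, 295 to 1302 for Errfi1, 414 to 980 for Spry4, 1932 to 3228 for Spred1 and 2169 to 3754 for Spred2, whereas Spry1 had at most 259.5 and was listed at 0 in 1 library.

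**Figure D1:**
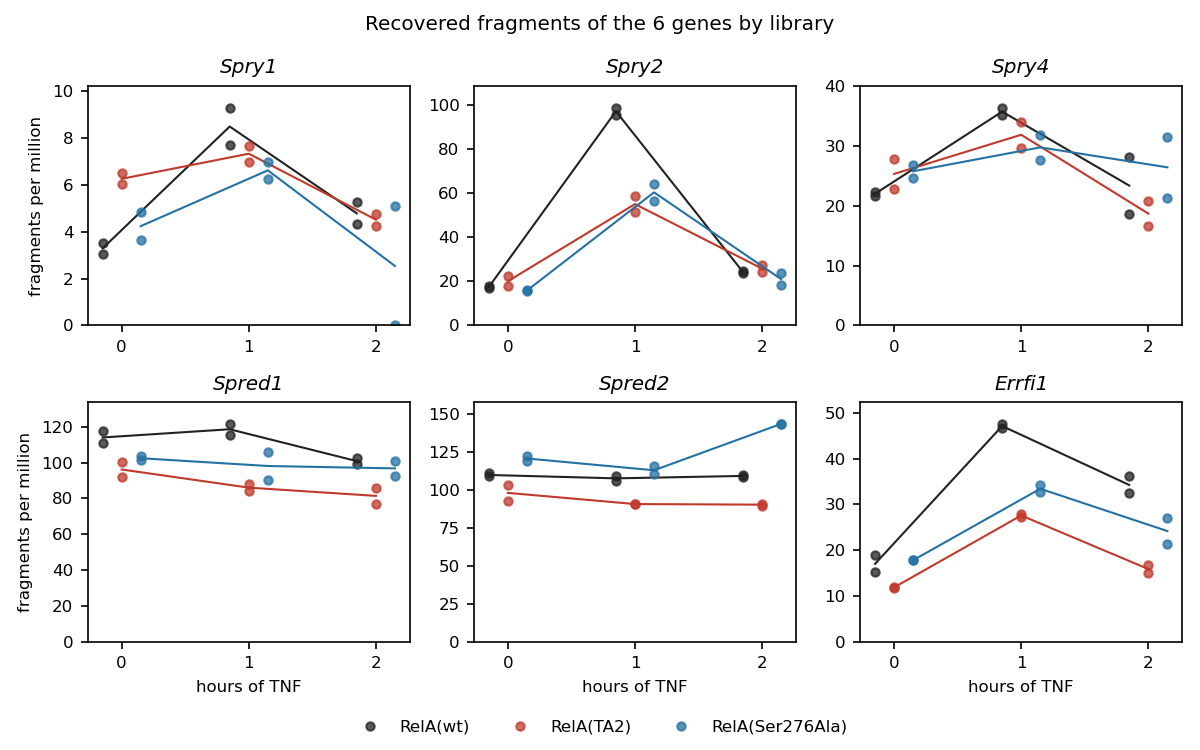
Recovered fragments, in FPM (vertical axes, from 0) against hours of TNFα for each of the 6 genes; points are single libraries, 2 per condition, lines join condition means, and colours mark the 3 RelA lines. Spry2 and Errfi1 peak at 1 h in every line, and at 1 h both stand highest in RelA(wt). Spred1 and Spred2 stay within 77.1 to 143 FPM.

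Spry2, at chr14:105891569-105896819 on the minus strand of mm10, rose in all 3 lines at 1 h of TNFα and had almost returned at 2 h. In RelA(wt) it was at 7.37 and 8.05 FPKM at 0 h, 36.1 and 34.8 at 1 h, and 10.4 and 10.9 at 2 h. In RelA(TA2) it was at 7.73 and 9.99 FPKM at 0 h, 22.2 and 25.0 at 1 h, and 12.2 and 10.5 at 2 h. In RelA(Ser276Ala) it was at 6.95 and 6.84 FPKM at 0 h, 28.7 and 22.8 at 1 h, and 9.34 and 8.21 at 2 h. The 1 h libraries stood above all 0 h and 2 h libraries of every line, and the RelA(wt) pair stood above the 1 h pairs of the mutants. The share of all genes whose libraries part in these ways is not given here. From 0 h to 1 h the log2 difference was 2.13 ± 0.15 (SE) for RelA(wt), 1.37 ± 0.15 for RelA(TA2) and 1.82 ± 0.15 for RelA(Ser276Ala), with limma adjusted p of 1.3e-05, 0.00065 and 9.5e-05. The mean FPKM at 1 h was 4.597-, 2.66- and 3.73-fold that at 0 h. From 1 h to 2 h the mean over the lines fell by 1.40 on the log2 scale (adjusted p = 4.13e-06), and at 2 h it was still 0.37 ± 0.09 above 0 h (adjusted p = 0.027). The 1 h calls held in 18 of 18 fits that left out single libraries, but with only the compared conditions in the fit they held in RelA(wt) alone (adjusted p of 0.023, 0.23 and 0.12 in the 3 lines). The 2 h call held in 11 of 18, with adjusted p up to 0.069, and was lost without RelA(wt) 0 h replicate 1, either RelA(wt) 2 h library, RelA(TA2) 2 h replicate 1, either RelA(Ser276Ala) 0 h library or RelA(Ser276Ala) 2 h replicate 1.

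In FPM, the Spry2 rise at 1 h was 79.5 for RelA(wt), 34.9 for RelA(TA2) and 44.4 for RelA(Ser276Ala), and 8.48%, 16.3% and 11.6% of it was left at 2 h. Spry2 also took a larger share of the Sprouty fragments. Per kilobase, it made up 50.9% and 53.5% of Spry1, Spry2 and Spry4 together in RelA(wt) at 0 h and 76.3% and 77.5% at 1 h. In RelA(TA2) that share went from 47.5% and 50.2% to 65.3% and 70.8%, and in RelA(Ser276Ala) from 47.6% and 43.2% to 73.6% and 69.7%. Spry2 was assembled longer in the RelA(wt) 1 h libraries (2558 and 2693 bases) than in the 16 others (2147 to 2468). The fragment values there thus count over more sequence. The 1 h fold of RelA(wt) was 5.565 in fragments and 4.597 in FPKM. It was 2.74 and 2.66 for RelA(TA2), and 3.81 and 3.73 for RelA(Ser276Ala).

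Errfi1, at chr4:150855091-150868880 on the plus strand, also rose at 1 h and fell back more slowly. It was at 18.9 and 15.1 FPM in RelA(wt) at 0 h, 46.7 and 47.6 at 1 h, and 32.4 and 36.1 at 2 h. In RelA(TA2) it was at 12.0 and 11.7 at 0 h, 27.9 and 27.2 at 1 h, and 16.6 and 15.1 at 2 h. In RelA(Ser276Ala) it was at 17.7 and 17.9 at 0 h, 32.7 and 34.1 at 1 h, and 26.9 and 21.4 at 2 h. No 1 h or 2 h library overlapped the 0 h pair of its own line, a pattern whose share over all genes is not given here. On the fragment scale the log2 difference at 1 h was 1.45 ± 0.12 for RelA(wt), 1.18 ± 0.12 for RelA(TA2) and 0.89 ± 0.12 for RelA(Ser276Ala), with limma adjusted p of 1.16e-05, 6.73e-05 and 0.00062. At 2 h it was 1.00, 0.40 and 0.42, with adjusted p of 0.00025, 0.023 and 0.040. The RelA(TA2) call at 2 h was lost without RelA(TA2) 2 h replicate 1 or 0 h replicate 2 (adjusted p of 0.13 and 0.098), and the RelA(Ser276Ala) call at 2 h in 7 of 18 such fits (adjusted p up to 0.22). Of the 1 h rise, 57.2% was left at 2 h for RelA(wt), 25.5% for RelA(TA2) and 40.8% for RelA(Ser276Ala).

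On the FPKM scale the 1 h differences of Errfi1 were 1.32 ± 0.59, 1.01 ± 0.59 and 0.82 ± 0.59 in the 3 lines, and none was called, with adjusted p of 0.50, 0.56 and 0.82. The 2 h libraries of RelA(TA2) lay far apart, at 32.0 and 4.79 FPKM. The library at 32.0 held a single-exon piece of 179 bases at the start of the gene with 26.5 FPKM from 12 fragments, beside a 3-exon transcript with 5.51 FPKM from 410 fragments. With transcripts under 300 bases left out, Errfi1 was called at 1 h in all 3 lines on the FPKM scale too, and it was also called in all 3 in the fits without either of those 2 libraries.

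**Figure D2:**
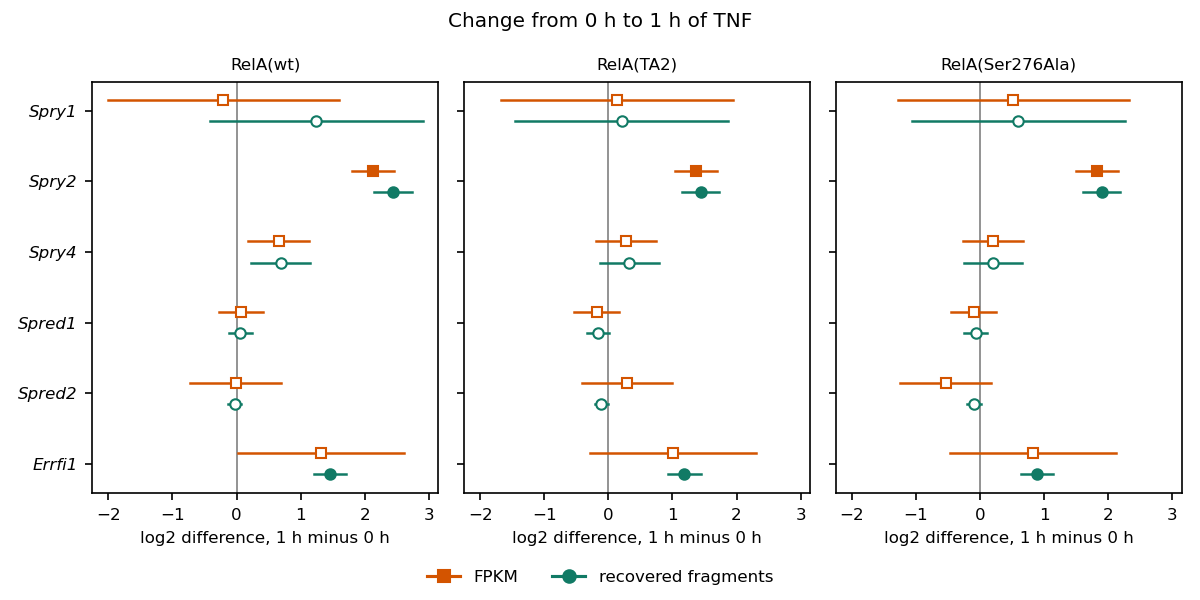
Log2 difference from 0 h to 1 h of TNFα (horizontal axes, the same for all panels) for the 6 genes in each line, with FPKM as squares and recovered fragments as circles; bars are 95% confidence intervals and filled symbols passed the adjusted p of 0.05. Spry2 is filled on both scales in every line, and Errfi1 is filled on the fragment scale only.

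Spry4, at chr18:38586265-38601268 on the minus strand, was assembled as a single 2-exon transcript in 18 of 18 libraries, so its FPKM was not affected by splitting. It was at 4.40 and 4.34 FPKM in RelA(wt) at 0 h, 7.09 and 7.24 at 1 h, and 3.70 and 5.48 at 2 h. In RelA(TA2) it was at 4.59 and 5.69 at 0 h, 6.76 and 5.85 at 1 h, and 3.35 and 4.12 at 2 h. In RelA(Ser276Ala) it was at 4.99 and 5.35 at 0 h, 5.67 and 6.40 at 1 h, and 6.35 and 4.30 at 2 h. The 1 h pair lay above the 0 h pair in every line, but the share of all genes whose pairs part in this way is not given here. No single line passed the test: the log2 differences at 1 h were 0.65 ± 0.21, 0.28 ± 0.21 and 0.20 ± 0.21 (limma adjusted p of 0.27, 0.70 and 0.92). Over the 3 lines the 1 h difference was 0.38 ± 0.12 in FPKM (adjusted p = 0.16) and 0.41 ± 0.12 in fragments (adjusted p = 0.039), a call that held in 8 of 18 fits that left out single libraries, with adjusted p up to 0.10 without RelA(TA2) 1 h replicate 1. The fall from 1 h to 2 h was called on both scales, with a log2 difference of -0.49 in FPKM (adjusted p = 0.029) and -0.53 in fragments (adjusted p = 0.0044), and it held in 11 and 18 of 18 such fits, the FPKM call with adjusted p up to 0.072.

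Spry1, at chr3:37639950-37644599 on the plus strand, was the scarcest of the group and was assembled as more than 1 transcript in 4 libraries. In RelA(wt) it was at 3.52 and 3.07 FPM at 0 h, 9.30 and 7.70 at 1 h, and 4.32 and 5.26 at 2 h. In RelA(TA2) it was at 6.51 and 6.02, then 7.68 and 6.9996, then 4.26 and 4.78. In RelA(Ser276Ala) it was at 3.66 and 4.83, then 6.997 and 6.26, then listed at 0 in replicate 1 and at 5.09 in replicate 2. The 1 h pair was above the 0 h pair in every line, and for Spry1 too no share of all genes stands beside that. With the single 0 kept, the SE of each line's 1 h difference was 0.76, and none was called on either scale: at 1 h the fragment differences were 1.24, 0.21 and 0.60, with adjusted p of 0.44, 0.94 and 0.82. When that 0 was set to missing, so that the fit dropped the library for this gene, the 1 h differences in RelA(wt) and RelA(Ser276Ala) were called (adjusted p of 0.00030 and 0.027). When either RelA(Ser276Ala) 2 h library was instead left out for every gene, the RelA(wt) difference was called (adjusted p of 0.00078 and 0.00088) and the RelA(Ser276Ala) difference was not (adjusted p of 0.053 and 0.057). In FPKM the RelA(wt) difference was -0.20: the 81 fragments of replicate 1 at 0 h were assembled as 3 pieces that sum to 12.3 FPKM, whereas the 81 fragments of replicate 2 gave 1.59.

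Spred1 and Spred2, at chr2:117120786-117182410 and chr11:19924054-20024101, both on the plus strand, changed little with TNFα. Spred1 ranged from 77.1 to 122 FPM over the 18 libraries and Spred2 from 89.5 to 143. At 1 h neither was called in any line on either scale, with fragment differences from -0.16 to 0.06 for Spred1 and from -0.11 to -0.03 for Spred2. Over the 3 lines at 2 h, Spred1 was 0.17 lower than at 0 h in fragments (log2 difference -0.17 ± 0.05, adjusted p = 0.015) but -0.01 in FPKM (adjusted p = 0.96). In RelA(Ser276Ala), Spred2 went from 122 and 119 FPM at 0 h to 143 and 143 at 2 h, a log2 difference of 0.25 ± 0.05 (adjusted p = 0.0069, but 0.070 without RelA(Ser276Ala) 0 h replicate 2), which was 0.19 in FPKM (adjusted p = 0.94).

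The FPKM of Spred2 depended on how it was assembled. In 9 libraries the gene was 1 transcript, with 17.8 to 23.4 FPKM. In the other 9 it was split in 2, a 2-exon piece over its start and a 4-exon piece over its end, and the FPKM sum was 32.3 to 52.1. The FPM of the 2 sets of libraries ran from 90.4 to 116 and from 89.5 to 143, so they overlapped. The split was found in 5 of 6 RelA(Ser276Ala) libraries, 3 of 6 RelA(TA2) libraries and 1 of 6 RelA(wt) libraries, so differences of Spred2 between lines are given in fragments first below.

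**Figure D3:**
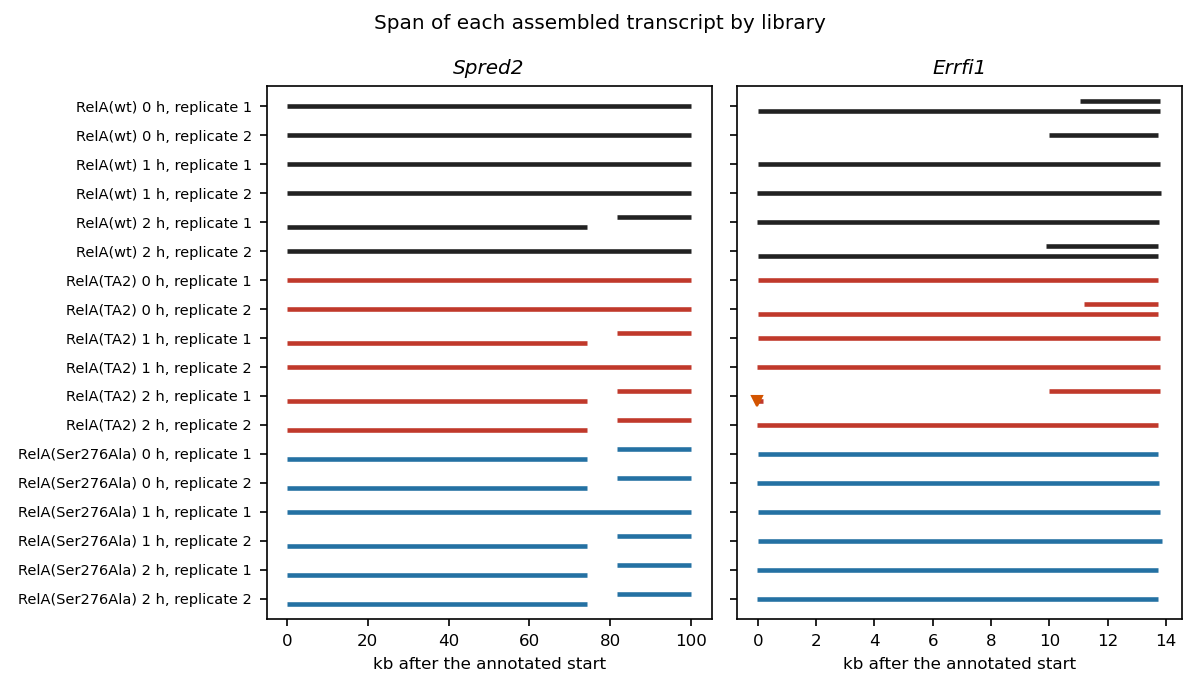
Span of each assembled transcript of Spred2 and Errfi1, as kilobases after the annotated start (horizontal axes), in the 18 libraries (rows), coloured by line; the triangle marks the 179-base piece of Errfi1. Spred2 is split in 9 of 18 libraries, most often in RelA(Ser276Ala).

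**Figure D4:**
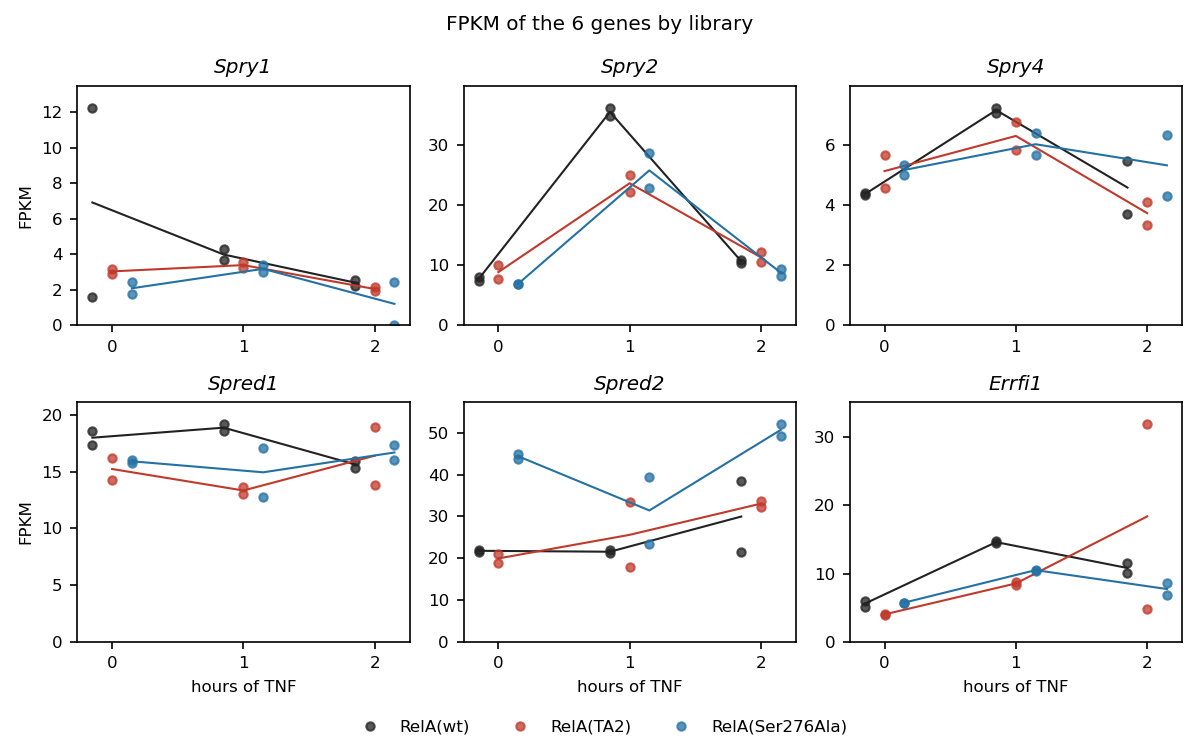
FPKM (vertical axes, from 0) of the 6 genes against hours of TNFα, with single libraries as points, condition means as lines and the 3 RelA lines as colours. The lone high points of Spry1 in RelA(wt) at 0 h (12.3) and of Errfi1 in RelA(TA2) at 2 h (32.0), and the Spred2 values of 32.3 and above, are libraries where a gene was assembled in pieces.

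Set against all genes tested, the TNFα response of the group was as follows. At 1 h in FPKM, 1 of the 6 genes, Spry2, was called in RelA(wt), RelA(TA2) and RelA(Ser276Ala), where 1.47%, 1.78% and 1.45% of all genes were called in either direction. In fragments, 2 of 6, Spry2 and Errfi1, were called in each line, against 7.38%, 10.8% and 6.61% of all genes. At 2 h in FPKM none of the 6 was called by limma in any line, against 1.53%, 3.14% and 0.858% of all genes, with 1, 3 and 0 of the 6 at an unadjusted p under 0.05. In fragments 2 of 6 were called in each line at 2 h, against 13.2%, 28.2% and 10.6%: Errfi1 higher in all 3, with Spry2 higher in RelA(wt) (0.46, adjusted p = 0.044), Spred1 lower in RelA(TA2) (-0.24, adjusted p = 0.046) and Spred2 higher in RelA(Ser276Ala). The Spry2 and Spred1 calls were lost with the replicate number as a block (adjusted p of 0.056 and 0.055), and each held in 6 of 18 fits without single libraries, with adjusted p up to 0.19 without RelA(wt) 0 h replicate 1 for Spry2 and up to 0.27 without RelA(TA2) 2 h replicate 2 for Spred1.

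Over the 3 lines, 1 of 6 was called at 1 h in FPKM (3.8% of all genes) and 3 of 6 in fragments (17.1%), all higher. At 2 h against 0 h, 1 of 6 was called in FPKM (7.22%) and 3 of 6 in fragments (38.5%). At 2 h against 1 h, 2 of 6 were called in FPKM (9.63%) and 4 of 6 in fragments (41.4%), with Spry2, Spry4 and Errfi1 lower and Spred2 higher by 0.12. The median log2 difference of the 6 genes at 1 h was 0.26 in FPKM and 0.54 in fragments, against -0.03 and -0.03 over all genes tested. The fragment shares at 2 h are within reach of the background, so the count alone says little there. Contrasts with 0 h share their 0 h libraries, and those with RelA(wt) share the RelA(wt) libraries.

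The lines were then compared at each time. Each form of RelA was in a single line, and the p-values measure the spread between libraries of a line. An effect of a mutation therefore cannot be told apart from other differences between the lines. At 1 h, Spry2 and Errfi1 were lower in both mutants on the fragment scale. Spry2 at 1 h was at 95.4 and 98.5 FPM for RelA(wt), 51.5 and 58.4 for RelA(TA2) and 64.0 and 56.5 for RelA(Ser276Ala). The log2 difference from RelA(wt) was -0.82 ± 0.13 for RelA(TA2) (limma adjusted p = 0.0016) and -0.68 ± 0.13 for RelA(Ser276Ala) (adjusted p = 0.0045). In FPKM it was -0.58 ± 0.15 (adjusted p = 0.078) and -0.46 ± 0.15 (adjusted p = 0.15), which was not called. The longest Spry2 transcript was 2558 and 2693 bases in the RelA(wt) 1 h libraries and 2147 to 2468 bases in the 16 others, so the fragment scale counted over more sequence there and FPKM did not.

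Errfi1 at 1 h was lower in RelA(TA2) than in RelA(wt), with a log2 difference of -0.76 ± 0.12 in fragments (adjusted p = 0.00098), and lower in RelA(Ser276Ala) (-0.49 ± 0.12, adjusted p = 0.011, up to 0.070 without RelA(wt) 1 h replicate 2 and lost also without RelA(wt) 1 h replicate 1 or RelA(Ser276Ala) 1 h replicate 1). In RelA(TA2) it was already lower at 0 h (-0.49, adjusted p = 0.011, but 0.10 without RelA(wt) 0 h replicate 1) and it was lower at 2 h (-1.09, adjusted p = 0.00010). In RelA(Ser276Ala) the 0 h difference was 0.07 (adjusted p = 0.75, 95% interval -0.18 to 0.33) and the 2 h difference was -0.50 (adjusted p = 0.0081, lost without RelA(Ser276Ala) 2 h replicate 2 or RelA(wt) 2 h replicate 2, with adjusted p of 0.075 and 0.071). The RelA(TA2) difference at 2 h was 0.22 in FPKM with the 179-base piece and -1.001 (adjusted p = 0.0020) with transcripts under 300 bases left out.

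Spred1 was lower in RelA(TA2) at every time on the fragment scale, by log2 differences of -0.25, -0.46 and -0.31 at 0 h, 1 h and 2 h (adjusted p of 0.049, 0.0024 and 0.019). In FPKM these were -0.24, -0.49 and 0.05, with none called, and the 2 h library at 19.0 FPKM also held a short piece, of 243 bases with 11 fragments. In RelA(Ser276Ala), Spred1 was lower at 1 h in fragments (-0.28 ± 0.08, adjusted p = 0.030, up to 0.21 without RelA(Ser276Ala) 1 h replicate 1 and lost without either RelA(wt) 1 h library), which was -0.34 in FPKM (adjusted p = 0.35). Spred2 was lower in RelA(TA2), at -0.17, -0.25 and -0.27 in fragments (adjusted p of 0.026, 0.00385 and 0.0020). In FPKM the same differences were -0.13, 0.18 and 0.20, none called, so the sign turned at 1 h and 2 h. In RelA(Ser276Ala), Spred2 was higher at 2 h (0.39 ± 0.05 in fragments, adjusted p = 0.00019), which was 0.81 in FPKM (adjusted p = 0.23). Spry4 and Spry1 were not called between lines at any time on either scale. Beside these line differences stands the higher Rela RNA of RelA(TA2), and its part in them was not tested. The paper also reports less RelA protein in the RelA(Ser276Ala) line than in RelA(wt), which Rela RNA does not show. The part of that protein difference was not tested either. Without single libraries, Spred1 in RelA(TA2) at 0 h was called in 7 of 18 fits (adjusted p up to 0.23 without RelA(wt) 0 h replicate 1), and it was lost with the replicate block (adjusted p = 0.058). At 2 h it was lost without either RelA(wt) 2 h library or RelA(TA2) 2 h replicate 2 (adjusted p up to 0.14). Spred2 at 0 h was lost without either RelA(wt) 0 h library or RelA(TA2) 0 h replicate 2 (adjusted p up to 0.15).

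In FPKM, limma called none of the 6 between RelA(TA2) and RelA(wt) at 0 h, 1 h or 2 h, against 2.92%, 2.62% and 2.57% of all genes, and none between RelA(Ser276Ala) and RelA(wt), against 1.68%, 2.86% and 3.03%. At an unadjusted p under 0.05 the counts were 0, 2 and 0 of 6 for RelA(TA2) and 1, 1 and 1 of 6 for RelA(Ser276Ala). In fragments, 3, 4 and 3 of 6 were called lower in RelA(TA2), against 22.5%, 20.4% and 22.7% of all genes in either direction. For RelA(Ser276Ala) 0, 3 and 2 of 6 were called, against 16.3%, 22.4% and 27.5%, and at 0 h 1 of 6 had an unadjusted p under 0.05.

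**Figure D5:**
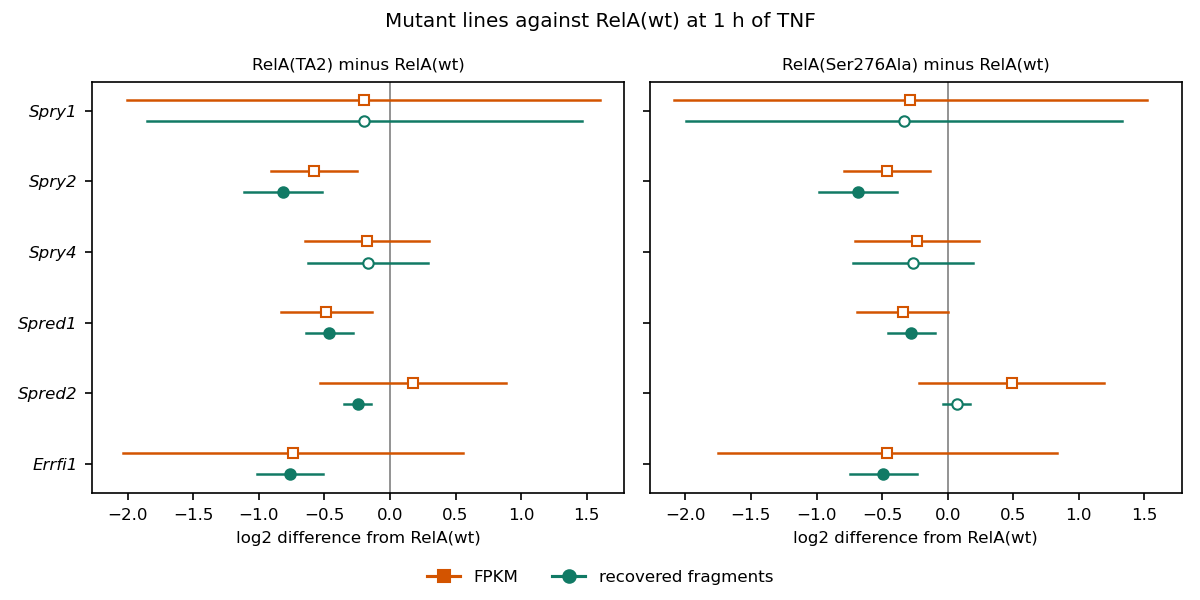
Log2 difference of RelA(TA2) (left) and RelA(Ser276Ala) (right) from RelA(wt) at 1 h of TNFα for the 6 genes, with FPKM as squares, recovered fragments as circles, 95% confidence intervals as bars and filled symbols for an adjusted p under 0.05. All of the genes but Spred2 lie below 0 on both scales in both mutants, and only the fragment scale has filled symbols.

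A lower level at 1 h is not the same as a smaller response, so the difference in response was tested on its own. For Spry2 the response from 0 h to 1 h was smaller in RelA(TA2) than in RelA(wt) by a log2 difference of -1.005 ± 0.19 in fragments (limma adjusted p = 0.026). It was -0.76 ± 0.21 in FPKM (adjusted p = 0.27), and the fragment call held in 12 of 18 fits that left out single libraries, with adjusted p up to 0.10 without RelA(TA2) 1 h replicate 1. For RelA(Ser276Ala) the Spry2 difference in response was -0.55 ± 0.19 in fragments (adjusted p = 0.86) and -0.31 ± 0.21 in FPKM (adjusted p = 1). For Errfi1 it was -0.27 ± 0.16 for RelA(TA2) and -0.56 ± 0.16 for RelA(Ser276Ala) in fragments, and limma called neither (adjusted p of 0.44 and 0.62). Of the 6 genes, 0 in FPKM and 2 in fragments had an unadjusted p under 0.05 for RelA(Ser276Ala) at 1 h. Over all genes, the response to 1 h differed in 0.38% (FPKM) and 1.85% (fragments) for RelA(TA2) and in 0.227% and 0.283% for RelA(Ser276Ala). The response to 2 h differed in 0.138% and 0.316% for RelA(TA2) and in 0.162% and 0.3% for RelA(Ser276Ala), and none of the 6 was called there on either scale, with 0 and 1 (RelA(TA2)) and 0 and 2 (RelA(Ser276Ala)) of 6 at an unadjusted p under 0.05.

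The pathway around these inhibitors was read from lists of its other genes, at 1 h against 0 h over the 3 lines in FPKM, where 3.8% of all genes were called in FPKM and 17.1% in fragments. Upstream, 3 of 9 measured growth factor ligands were called in FPKM, all higher: Ereg (2.07 ± 0.09), Areg (1.38 ± 0.08) and Hbegf (0.94 ± 0.15). All 3 bind receptors of the EGF family that Errfi1 inhibits. In fragments these 3 were also called higher, whereas Pdgfa was called lower (-0.33, limma adjusted p = 0.00042). In FPKM Pdgfa was at -0.50 and was not called. The count over all 9 ligands in fragments is not given here. Of 11 receptor tyrosine kinases limma called none in FPKM (4 at an unadjusted p under 0.05), while in fragments 1 was higher and 3 were lower, among them Pdgfrb (-0.33) and Erbb2 (-0.18). Of 18 genes for adaptors, Ras, Raf, MEK and ERK none was called in FPKM (3 unadjusted), and 1 was higher and 2 lower in fragments, a share near that of all genes. Of 10 known partners of Sprouty, Spred and Errfi1 proteins none was called on either scale (0 and 1 unadjusted).

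Among 11 other genes listed as feedback inhibitors of kinase signalling, 5 were higher and 1 was lower at 1 h in FPKM, against the same 3.8% of all genes. The dual-specificity phosphatases Dusp1 (2.30 ± 0.15), Dusp5 (1.78 ± 0.10) and Dusp10 (1.16 ± 0.07) rose, and the ERK phosphatase Dusp7 fell by 0.53. For Spry2 the same difference was 1.77 ± 0.09. Of 14 genes that ERK induces, 10 were higher and none lower, with Egr1 (4.35 ± 0.16), Phlda1 (2.96 ± 0.08) and Myc (1.55 ± 0.07) as examples. Fos, also in that list, was listed at 0 in every 0 h library and at 2.56 to 10.2 FPKM at 1 h. Of 12 NF-κB target genes 8 were higher in FPKM and 12 in fragments, with Tnfaip3 (4.77 ± 0.16), Nfkbia (3.71 ± 0.19) and Ccl2 (2.30 ± 0.12). At 2 h against 1 h in FPKM, where 9.63% of all genes were called, 10 of the 14 ERK-induced genes were lower. Of the NF-κB targets 2 were higher and 6 lower, and Spry2 was lower. In fragments, with 41.4% of all genes called, 13 of the 14 ERK-induced genes were lower and the NF-κB targets divided into 6 higher and 6 lower. ERK activity was not measured here, and which pathway raised Spry2 was not tested. The chemokine gene Cxcl1 was listed at 0 in every 0 h library and at 24.2 to 200.2 FPKM at 1 h. The median log2 difference at 1 h was 0.02 for the ligands, -0.04 for the receptors, -0.08 for the adaptors and kinases, -0.01 for the partners, 0.01 for the other inhibitors, 1.56 for the ERK-induced genes and 1.76 for the NF-κB targets.

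Over the 18 libraries, log2 FPKM of Spry2 was most like that of Zfp36l1, an RNA-binding protein gene (Pearson r = 0.97), Rhob, a small GTPase gene (0.97), and Klf2, a transcription factor gene (0.97), among 10488 genes above 0 throughout. For Errfi1 the closest were 6720401G13Rik (0.80), Steap2 (0.78) and Ptges, a prostaglandin synthase gene (0.77). For Spry4 they were Nisch (0.80), Tiam2 (0.80) and Jun (0.79), and for Spry1 Dnajc17 (0.82), Spata6 (0.75) and Myst4 (0.75). For Spred1 they were Gng5 (0.69), Trim30a (0.69) and Rhoq (0.66), and for Spred2 1500017E21Rik (0.90), Ddx5 (0.85) and Nol11 (0.84). These are descriptions over 18 points that share 9 conditions. On the fragment scale the closest to Spry2 were Rhob (0.98), Zfp36l1 (0.98) and Rasgef1b (0.97), and the closest to Errfi1 were Areg, which encodes a ligand of the EGF receptor (0.92), Trib1 (0.92) and Sgk1 (0.92). For the other genes of the group the closest in fragments were also not those in FPKM. First came Mpv17l for Spry1 (0.91), 4930473A06Rik for Spry4 (0.86), Uprt for Spred1 (0.94) and Tab3 for Spred2 (0.93). The FPKM of Spred2 depended on how it was assembled, as did that of Spry1 in RelA(wt) at 0 h. The part of assembly in the FPKM likenesses was not tested.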

How the data were processed

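RNA of 18 libraries was sequenced, described by the study as mRNA; the labels name TruSeq kits for both mRNA and small RNA and do not say which made these libraries. Tools named per the labels are CASAVA 1.8.2 for base calls, TopHat2 2.0.5 over Bowtie2 2.0.0.7 for alignment (mm10) and Cufflinks 2.0.2 for assembly, which the authors ran library by library. The deposited files hold an FPKM, with its confidence interval, per assembled transcript. Transcripts were placed on the named gene they overlapped most, where that was at least 50% of the transcript's or the gene's exonic bases, and FPKM was summed per gene. Fragments were recovered as (2 FPKM / (upper limit - FPKM)) squared in loci with 1 transcript, where 88.9% to 90.2% of values under 500 lay within 0.02 of a whole number, and from FPKM and length elsewhere. limma 3.58.1 in R 4.3.3 fitted 9 condition means with a variance trend to log2(value + 0.5) of 12353 genes with at least 1 FPKM in 2 libraries, after a check on simulated data. Added value, filter, scaling, measure, assembly, samples in the fit, replicate block and single libraries were varied. Named were the 6 genes, Rela and the 3 genes most like each of the 6. Per list, genes among the 4 with the smallest adjusted p at 1 h over the lines were named. Markers were named where they were listed at 0 or had the highest median of their list. The genes and lists were chosen with earlier results of these data known. Overlapping antisense transcripts cannot be told apart without strand.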

Additional observations from a re-analysis of the deposited data

Results flagged for a closer look

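The response of Spry2 from 0 h to 1 h differed between RelA(TA2) and RelA(wt) by a test of the difference itself. It differed by -1.005 on the log2 scale in recovered fragments (limma adjusted p = 0.026). Both RelA(TA2) libraries at 1 h were below both RelA(wt) libraries, a pattern whose share over all genes is not given here. In FPKM the difference in response was -0.76 (adjusted p = 0.27). Spry2 was assembled longer in the RelA(wt) 1 h libraries (2558 and 2693 bases) than in the others (2147 to 2468). Groups of 2 libraries are too small for a test of single outlying samples.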

How the results depend on the processing

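Counts of called genes among the 6 depended on the measure more than on the fit. With 0.1 or 1 added before the logarithm, a filter of 5 FPKM, no filter or no variance trend, every count stayed within 1.5 times that in FPKM and no printed difference changed sign; with median-of-ratios scaling the same held except that Spred1 at 2 h over the lines turned from -0.014 to 0.031. On recovered fragments, 2 genes were called in each line at 1 h and at 2 h, 3, 4 and 3 between RelA(TA2) and RelA(wt) at 0, 1 and 2 h, 3 and 2 between RelA(Ser276Ala) and RelA(wt) at 1 and 2 h, 1 for the RelA(TA2) difference in response to 1 h, and 3, 3 and 4 over the lines at 1 h, 2 h and 2 h against 1 h. With transcripts of at least 300 bases, an alternative chosen after seeing the data, 2 were called in each line and over the lines at 1 h, 1 in RelA(wt) at 2 h, 1 each between RelA(TA2) and RelA(wt) at 1 h and 2 h, and 2 over the lines at 2 h. With only the compared conditions in the fit, 0 were called in RelA(TA2) and in RelA(Ser276Ala) at 1 h, 1 (Spred2) between RelA(Ser276Ala) and RelA(wt) at 0 h, 2 over the lines at 1 h and 1 at 2 h against 1 h, where fewer samples estimate the spread. With the highest transcript of a gene in place of the sum, 1 (Spred2) was called between RelA(Ser276Ala) and RelA(wt) at 2 h and 0 over the lines at 2 h, and the cause was not tested.

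Some FPKM differences that passed no test turned sign. On fragments, Spry1 at 1 h in RelA(wt) was 1.24, Spred1 at 2 h in RelA(TA2) was -0.24, and at 2 h RelA(TA2) against RelA(wt) was -0.31 for Spred1, -0.27 for Spred2 and -1.09 for Errfi1, with Spred2 at -0.25 at 1 h. With the highest transcript, Spry1 at 1 h was -0.37 in RelA(TA2) and -0.023 over the lines, Spred1 at 2 h in RelA(TA2) was -0.27, and RelA(TA2) against RelA(wt) was -0.18 for Spred2 at 1 h, and at 2 h -0.11 for Spry2, -0.31 for Spred1 and -0.18 for Spred2. With at least 300 bases, Spred1 was -0.27 at 2 h in RelA(TA2) and -0.31 between RelA(TA2) and RelA(wt) at 2 h, where Errfi1 was -1.001.

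Leaving out each library in turn gave 1 to 2 called genes in each line and over the lines at 1 h, 0 to 1 in RelA(wt) and RelA(TA2) at 2 h, 0 to 1 between RelA(TA2) and RelA(wt) at 1 h and 2 h and for the RelA(TA2) difference in response to 2 h, 0 to 2 over the lines at 2 h, and 1 to 3 at 2 h against 1 h. Differences that turned sign ranged from -1.51 to 1.099 (Spry1 at 1 h in RelA(wt)), -0.28 to 0.58 (Spry1 at 1 h over the lines), -0.13 to 0.31 (Spred1 at 2 h in RelA(TA2)), -0.087 to 0.060 (Spred1 at 2 h over the lines), -0.54 to 0.33 (Errfi1 at 2 h against 1 h) and -0.068 to 0.14 (Errfi1, RelA(Ser276Ala) against RelA(wt) at 0 h). Between RelA(TA2) and RelA(wt) they ranged from -0.27 to 0.62 for Spred2 at 1 h, and at 2 h from -0.026 to 0.18 for Spry2, -0.17 to 0.27 for Spred1, -0.22 to 0.62 for Spred2 and -1.09 to 1.53 for Errfi1. On fragments (chosen after seeing the data), the counts were 2 to 4 in RelA(wt) at 1 h, 1 to 2, 1 to 3 and 0 to 4 in the 3 lines at 2 h, 0 to 4 for RelA(TA2) and 0 to 1 for RelA(Ser276Ala) against RelA(wt) at 0 h, 1 to 3 and 1 to 2 for RelA(Ser276Ala) at 1 h and 2 h, 0 to 2 for the RelA(TA2) difference in response to 1 h and 0 to 1 for that of RelA(Ser276Ala) to 2 h. Errfi1 between RelA(Ser276Ala) and RelA(wt) at 0 h then ranged from -0.082 to 0.23, and Spry2 between RelA(TA2) and RelA(wt) at 2 h from -0.0093 to 0.18. With single zeros set to missing (chosen after seeing the data), 1 gene was called for RelA(Ser276Ala) against RelA(wt) at 0 h, 2 and 1 for the RelA(TA2) difference in response to 1 h and 2 h, 1 for that of RelA(Ser276Ala) to 2 h, and 5 over the lines at 1 h.

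Libraries with the same replicate number did not deviate together (r from -0.083 to 0.096 over 36 pairs of conditions in FPKM, and from -0.091 to 0.128 in fragments, with 1 pair above 0.1). A fit with the replicate number as a block moved the calls over all genes at 1 h from 181 to 166 in RelA(wt), 220 to 186 in RelA(TA2) and 179 to 171 in RelA(Ser276Ala); among the 6 genes it left 1 called on fragments at 2 h in RelA(wt) and 1 in RelA(TA2), and moved no FPKM count of the 6 by over 1.5 times. Pairs of libraries limit what FPKM differences can show, since the FPKM of a gene in pieces spreads by more than its fragments.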
